A study of Homo sapiens with 8 samples.

Results

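FGF8+10 treatment was compared with Mock treatment in sorted MSX1-reporter-positive, PDGFRA-positive cells made from H1, an established human embryonic stem cell line. The comparison takes 4 of the 8 libraries of the series, 2 biological replicates for each treatment, and covers all genes. Of 61209 gene names in the count table, 39416 had a count in any library and 22554 passed the filter on low counts and were tested. All cells carried the Msx1-P2A-tdTomato genotype, in which a red fluorescent protein is made together with MSX1. All groups, controls included, had first been given a day 0 mix of FGF2 (10 ng/mL), BMP4 (40 ng/mL), Activin A (50 ng/mL) and CHIR99021, a GSK3 inhibitor (6 µM), and then, from day 1, 3 days of BMP4 at 60 ng/mL plus CHIR99021 at 1 µM. On day 4 the cells were put into pellets of 25000 cells per well. The treated cells received FGF8 and FGF10 at 500 ng/mL each, the pellets were moved to dishes on day 5, and after 3 more days the cells were sorted on day 8. What the Mock medium held is not stated in the labels, whose protocol text describes the FGF8+10 medium for every library. The series' other 4 libraries are MSX1-reporter-positive cells with low PDGFRA from the same 2 treatments, 2 libraries each. They enter here to share the estimate of spread and to test where the response differed between the sorted populations. One cell line was used, and the labels do not say whether it was 1 clone.

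Fibroblast growth factors bind receptor tyrosine kinases with heparan sulfate as a cofactor and signal mainly through RAS and ERK, AKT and phospholipase C gamma. In the limb bud, FGF10 from the mesenchyme acts on the overlying ectoderm, and FGF8 from the apical ectodermal ridge acts back on the mesenchyme. There the signal sustains proliferation and patterning along with WNT, BMP, hedgehog and retinoic acid signals. PDGFRA, a receptor for platelet-derived growth factors, marks many embryonic mesenchymal cells, and MSX1 is a homeobox factor of the distal limb mesenchyme.

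Levels are given as CPM (a gene's counts scaled to a common library total) after TMM scaling, which sets the libraries to a common composition, and RPKM (the same per 1000 bases of exon) are used where genes are compared with each other. Each difference is a log2 fold change, FGF8+10 minus Mock, with its standard error (±) from edgeR's quasi-likelihood test, and a gene is called when its Benjamini-Hochberg adjusted p over all genes tested is under 0.05. Where 2 CPM values are joined by "and", they are replicates 1 and 2 of a group, and for every called gene given this way the 2 treatments did not overlap. The libraries held 47698561 to 64390444 counts each. Both genes behind the sort were present in all 4 libraries. PDGFRA was at 712 and 716 CPM with FGF8+10 and 453 and 455 CPM with Mock, and MSX1 at 51.5 and 49.1 CPM with FGF8+10 and 22.1 and 21.3 CPM with Mock. Both were higher with FGF8+10, and the sort took place after the treatment. In bulk RNA, fewer cells of a type and less RNA per cell cannot be told apart.

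The label of the cells was checked against marker lists. Of the 26 limb mesenchyme markers, those tested had a summed level of 1975 and 1977 CPM with FGF8+10 and of 1798 and 1811 CPM with Mock. Of the 23 of them that were tested, however, 12 were lower with FGF8+10, 9 by at least 2-fold, and 7 were higher, 2 by at least 2-fold. Their median log2 fold change was -0.23. The 2 with the larger rises were GREM1 (log2 fold change 5.37) and FGF10 (4.12). Of the 18 lateral plate mesoderm markers, all tested, 11 were higher with FGF8+10 and 5 lower. They summed to 4120 and 4127 CPM with FGF8+10 against 3250 and 3230 CPM with Mock, and they include the sort gene PDGFRA and KDR. Of the 15 endothelial markers 9 were higher with FGF8+10, 5 by at least 2-fold, and 2 were lower, each by at least 2-fold. The 15 summed to 2362 and 2375 CPM with FGF8+10 against 1522 and 1514 CPM with Mock. Most of that sum was KDR, a VEGF receptor that early mesoderm also expresses, at 1609.5 and 1609.6 CPM with FGF8+10 and 1159 and 1148 CPM with Mock, while the defining endothelial cadherin CDH5, named here after its values were seen, lay between 0.747 and 1.72 CPM in the 4 libraries. Of the 10 cardiac muscle markers 7 were tested, with 5 lower with FGF8+10 and 0 higher. Those 7 summed to 67.9 and 67.1 CPM with FGF8+10 against 211 and 216 CPM with Mock. Of the 10 smooth muscle markers 6 were lower and 1, ACTA2, higher, with sums of 792 and 813 against 1074 and 1080 CPM. Of 8 epithelial markers tested 4 were lower and 1 higher, with sums of 473 and 477 against 667 and 666 CPM in the same order. Lists of pluripotency, skeletal muscle, endoderm, blood and mesothelium markers are not described here. Of the 9 neural markers 1 passed the filter, and that 1 stayed at or below 1.32 CPM. The part of these other cell types in the differences below was not tested.

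The response reached about as many genes upward as downward. Of the genes tested, 5811 (25.8%) were higher and 5658 (25.1%) lower with FGF8+10, which is 50.9% called in either direction. By at least 2-fold, 1645 (7.29%) were higher and 2217 (9.83%) lower. These shares are the background against which each family below is read, since a family near 25% in each direction was called about as often as genes at large. They do not measure how large the changes of a family were. The calls shift with the scaling. With library totals alone and no TMM factor, 8164 genes were higher and 3991 lower, 67.17% of calls higher against 50.67%, and the median over all genes moved by 0.17 from -0.01. The plot of families sets the members called in each direction beside the shares over all genes. Mitosis, DNA replication and HOX genes lie far to the right of the background lines, and fatty acid synthesis, ribosome biogenesis and amino acid genes lie far to the left.

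**Figure D1:**
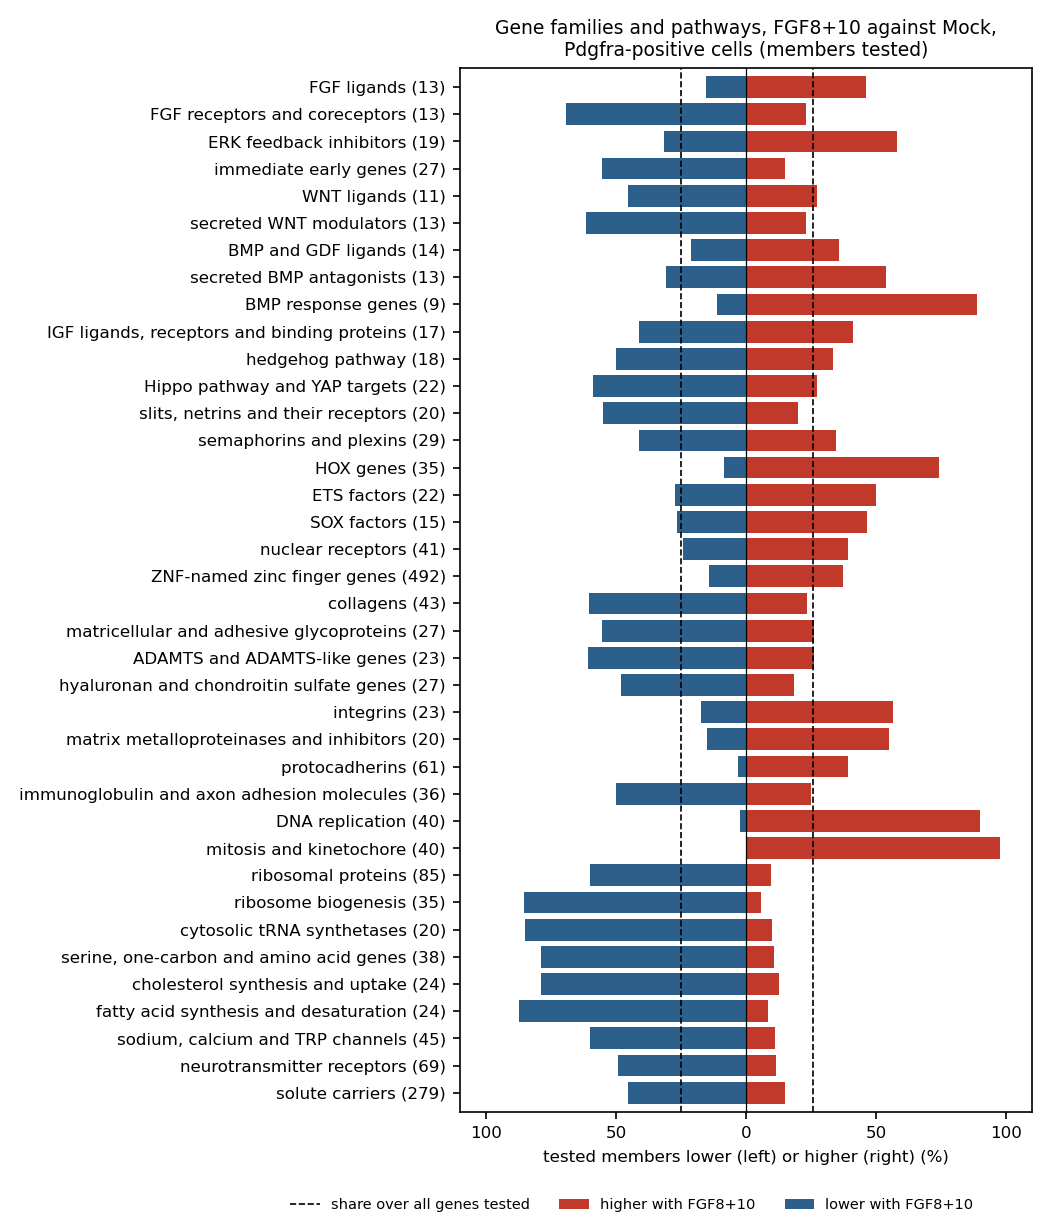
Share of the tested members of each gene family or pathway that were higher (red, to the right) or lower (blue, to the left) with FGF8+10 than with Mock in PDGFRA-positive cells, in percent, with the number of members tested in parentheses. The dashed lines mark the shares over all genes tested, 25.8% higher and 25.1% lower, and 39 of 40 mitosis genes lie to the right.

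Genes of the FGF pathway itself moved apart by role. Among FGF ligands, 13 of 22 were tested, with 6 higher and 2 lower. FGF9 was at 8.59 and 9.27 CPM with FGF8+10 and 0.381 and 0.228 CPM with Mock (log2 fold change 4.88 ± 0.25, adjusted p = 2.18e-21). FGF2 was at 15.5 and 14.7 CPM with FGF8+10 and 9.63 and 7.68 CPM with Mock (0.81 ± 0.11). FGF7, a mesenchymal ligand for epithelial receptors, was lower (-0.64 ± 0.037). Receptors and coreceptors leaned the other way, with 3 of 13 higher and 9 lower. FGFR2 was at 266 and 275 CPM with FGF8+10 and 1581 and 1599.7 CPM with Mock, FGFR1 was higher by 1.01 ± 0.030, and the decoy receptor FGFRL1 was lower (-0.88 ± 0.061). ANOS1, a secreted glycoprotein that binds FGFR1 and heparan sulfate, was higher (1.34 ± 0.15).

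Feedback inhibitors of ERK, which FGF signalling induces and which then dampen it, were mostly higher, 11 of 19 against 6 lower. DUSP6, a phosphatase of ERK, was at 24.0 and 24.7 CPM with FGF8+10 and 4.32 and 4.03 CPM with Mock (2.55 ± 0.089), and IL17RD, a membrane antagonist of FGF receptors, was higher (1.24 ± 0.14). The inhibitors that were lower included ERRFI1, which restrains EGF receptors (-1.73 ± 0.026), and the stress-kinase phosphatases DUSP8 (-1.25 ± 0.13) and DUSP1 (-0.49 ± 0.085). DUSP4, of the same phosphatase family as DUSP6, was also called lower, by less than DUSP1. In the core of the pathway from RAS to ERK, 12 of 24 genes were higher and 6 lower (with library totals alone 16 and 3). Most of these changes were small, with a median of 0.099, and 2 genes were higher by at least 2-fold and 0 lower. RASGRP3, an exchange factor that loads RAS with GTP, was the largest rise among them, from 2.40 and 2.05 CPM with Mock to 15.7 and 15.6 CPM with FGF8+10.

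Immediate early genes, the transcription factor genes that growth factors switch on within minutes, were lower rather than higher on day 8. Of 27 tested, 15 were lower and 4 higher, and the median log2 fold change was -0.59 against -0.01 over all genes. MYC, a driver of growth and ribosome synthesis, was at 25.1 and 25.1 CPM with FGF8+10 and 63.8 and 66.0 CPM with Mock (-1.37 ± 0.056). EGR1 was at 43.5 and 46.0 CPM with FGF8+10 and 88.9 and 85.4 CPM with Mock (-0.96 ± 0.052), and JUN and the stress factor ATF3 were lower as well (-1.02 ± 0.059 and -1.89 ± 0.078). FOS was also lower, at 191 and 194 CPM with FGF8+10 against 254 and 255 CPM with Mock. BTG2, an antiproliferative factor, was among the few higher (0.57 ± 0.11). The ETS factors downstream of ERK went up as the ERK inhibitors did: ETV4 was at 19.0 and 17.9 CPM with FGF8+10 and 1.75 and 2.22 CPM with Mock and ETV5 was higher by 2.51 ± 0.093. Across ETS factors 11 of 22 were higher and 6 lower, including ETS2 (-1.17 ± 0.028).

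Secreted regulators of WNT signalling gave some of the widest changes, in both directions. They were lower in 8 of 13 and higher in 3. DKK2, which binds the LRP coreceptors, was at 1.90 and 1.66 CPM with FGF8+10 and 133 and 136 CPM with Mock (-6.24 ± 0.066, adjusted p = 1.25e-48). FRZB, a secreted frizzled-related WNT antagonist of cartilage, was at 28.6 and 29.6 CPM with FGF8+10 and 829 and 821 CPM with Mock (-4.83 ± 0.029). In both, the Mock libraries stood far above the FGF8+10 libraries, and the replicates of each treatment were close to each other. Of the R-spondins, which raise WNT receptor levels at the membrane by acting through LGR receptors, RSPO1 (-5.16 ± 0.12), RSPO2 (-1.99 ± 0.027) and RSPO3 (-1.12 ± 0.037) were lower and RSPO4 was higher (0.35 ± 0.049). RSPO2 is needed for limb outgrowth and was at 111 and 107 CPM with FGF8+10 and 429 and 431 CPM with Mock. Against these falls, the antagonist SFRP1 was at 291 and 298 CPM with FGF8+10 and 26.9 and 26.1 CPM with Mock (3.47 ± 0.041) and DKK1 at 46.9 and 45.9 CPM with FGF8+10 and 12.2 and 11.7 CPM with Mock (1.96 ± 0.060).

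WNT ligands and receptors of 1 family also moved in opposite directions. WNT5A, the ligand of planar polarity and outgrowth in the limb, was at 389 and 386 CPM with FGF8+10 and 147 and 146 CPM with Mock (1.40 ± 0.026), and its close relative WNT5B was at 40.7 and 38.6 CPM with FGF8+10 and 92.2 and 95.3 CPM with Mock (-1.24 ± 0.048). WNT11 was higher (0.73 ± 0.068) and WNT3 lower (-1.11 ± 0.074), for 3 of 11 ligands higher and 5 lower. Among receptors FZD8 was higher (2.75 ± 0.042), FZD3 was higher (1.23 ± 0.049), and FZD4 and FZD7 were lower (-1.25 ± 0.045 and -1.20 ± 0.049). Genes that WNT signalling itself induces gave no common direction: LGR5 rose from 0.426 and 0.208 CPM with Mock to 12.3 and 11.7 CPM with FGF8+10, LEF1 was higher (1.17 ± 0.044), and AXIN2, ZNRF3 and NKD1 were lower (-0.49 ± 0.074, -1.19 ± 0.12 and -1.65 ± 0.096).

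BMP antagonists, receptors and response genes were called higher more often than lower. BMP2 was at 334 and 329 CPM with FGF8+10 and 74.8 and 73.6 CPM with Mock (2.16 ± 0.046, adjusted p = 1.3e-18). BMP4 was at 88.0 and 90.1 CPM with FGF8+10 and 42.3 and 46.2 CPM with Mock. GDF6, a joint-forming ligand, was higher (1.45 ± 0.038), and BMP7 was lower (-1.61 ± 0.17). Antagonists that bind BMPs outside the cell were higher in 7 of 13 and lower in 4. BMPER was at 37.9 and 38.2 CPM with FGF8+10 and 4.95 and 4.65 CPM with Mock (2.99 ± 0.088). FST, which traps activins and some BMPs, was lower (-1.77 ± 0.15). Receptors of the superfamily were higher in 10 of 15, among them ACVRL1 (2.56 ± 0.039) and TGFBR2 (1.53 ± 0.031), and lower in 3. Genes that BMP signalling induces were higher in 8 of 9 and lower in 1, with a median of 1.16. They included the receptor-regulated SMAD9 (1.96 ± 0.046), the helix-loop-helix inhibitors ID3 (1.53 ± 0.059) and ID1 (0.73 ± 0.099), and the pseudoreceptor BAMBI (1.34 ± 0.022), while the inhibitory SMAD7 was lower (-0.87 ± 0.041). TGFB2 was at 48.2 and 47.7 CPM with FGF8+10 and 16.5 and 16.4 CPM with Mock (1.54 ± 0.066), TGFB3 was lower (-0.66 ± 0.10), and of the latent binding proteins LTBP2 was higher (1.92 ± 0.16) and LTBP4 lower (-1.20 ± 0.035).

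Hedgehog signalling, which PTCH1 and GLI1 report because the pathway induces both, gave lower values. PTCH1 was at 42.6 and 39.7 CPM with FGF8+10 and 121 and 109.6 CPM with Mock (-1.49 ± 0.043) and GLI1 at 0.770 and 0.795 CPM with FGF8+10 and 4.17 and 5.06 CPM with Mock (-2.56 ± 0.25). HHIP, a membrane inhibitor that hedgehog signalling usually induces as well, went the other way and was higher (2.90 ± 0.21), as was the coreceptor BOC (1.37 ± 0.079). In all, 9 of 18 pathway genes were lower and 6 higher. In the retinoic acid pathway ALDH1A2, the enzyme that makes retinoic acid in mesoderm, was at 82.8 and 75.2 CPM with FGF8+10 and 7.10 and 8.36 CPM with Mock (3.35 ± 0.076), while the receptor RARG and the carrier CRABP2 were lower (-0.69 ± 0.048 and -0.94 ± 0.053). CYP26B1, which degrades retinoic acid in the distal limb, was not called, at 0.370 and 0.236 and 0.179 and 0.0415 CPM in the same order of groups.

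In the Notch pathway the target HEY1 was at 63.7 and 61.9 CPM with FGF8+10 and 15.9 and 16.9 CPM with Mock (1.94 ± 0.056), the ligand JAG1 was higher (0.67 ± 0.099) and JAG2 lower (-1.61 ± 0.17), for 8 of 21 higher and 4 lower. Genes of the Hippo pathway and targets of its effectors YAP and TAZ were lower in 13 of 22 and higher in 6. TEAD4, a DNA-binding partner of YAP, and AMOTL1, a junctional YAP inhibitor, were lower (-1.03 ± 0.16 and -1.49 ± 0.026), as was YAP1 (-0.48 ± 0.023), and WWTR1, which encodes TAZ, was higher (0.79 ± 0.042).

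Other secreted factors changed in both directions as well. STC1, a glycoprotein hormone, was at 213 and 219 CPM with FGF8+10 and 2691 and 2694 CPM with Mock (-3.64 ± 0.022, adjusted p = 2.87e-58). IGFBP3, which binds insulin-like growth factors, was at 7123 and 7162 CPM with FGF8+10 and 18701 and 18904 CPM with Mock (-1.40 ± 0.013). The growth factor IGF2 was lower (-1.41 ± 0.019), IGFBP2 was higher (1.91 ± 0.051), and so was PAPPA, a protease that frees IGF from its binding proteins (2.74 ± 0.11). Over the whole family 7 of 17 were higher and 7 lower. Among vascular factors, ANGPT2 was at 125 and 129.9 CPM with FGF8+10 and 20.1 and 20.8 CPM with Mock (2.64 ± 0.045), and TEK, the receptor of both angiopoietins, was higher (1.63 ± 0.025), next to the endothelial marker sums given above. VEGFA, the main growth factor of blood vessels, was at 42.3 and 45.9 CPM with FGF8+10 and 720.1 and 735 CPM with Mock (-4.04 ± 0.031, adjusted p = 5.46e-54), so that all FGF8+10 values lay far below Mock. VEGFC was higher (1.16 ± 0.082) and ANGPTL2 lower (-2.62 ± 0.049). Of the VEGF and PDGF ligands and receptors 7 of 16 were higher and 6 lower (3 without FGF8+10 replicate 1 of the PDGFRA-positive cells).

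Of 66 chemokines and receptors 23 were tested, with 5 higher and 7 lower. CXCL14 was at 247 and 252 CPM with FGF8+10 and 3465 and 3442 CPM with Mock (-3.79 ± 0.020). CXCL12 rose to 170.4 and 166 CPM from 34.3 and 36.7 CPM with Mock (2.24 ± 0.044), and its signalling receptor CXCR4 was at 91.7 and 91.9 CPM with FGF8+10 and 3.47 and 4.09 CPM with Mock (4.60 ± 0.077). ACKR3, which removes CXCL12 from the outside, was lower (-2.23 ± 0.033). The ligand and its receptor were higher and the scavenger lower.

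Neurotrophic and guidance genes were changed by large factors in both directions. BDNF was at 22.6 and 21.6 CPM with FGF8+10 and 2.33 and 2.22 CPM with Mock (3.28 ± 0.12) and its receptor NTRK2 was higher (3.63 ± 0.033), while NTRK3, the receptor of neurotrophin 3, was lower (-2.0 ± 0.047). RET, the signalling receptor of the GDNF family, was higher (2.49 ± 0.23), and the ligand NRTN and the receptor ALK were lower (-1.76 ± 0.14 and -2.82 ± 0.18). The peptide NPY was at 1.05 and 0.927 CPM with FGF8+10 and 231 and 231 CPM with Mock (-7.86 ± 0.062), and SST, which encodes somatostatin, was lower too (-6.19 ± 0.17). Among neuropeptides and peptide hormones 25 of 52 were tested and 8 were higher, adrenomedullin (ADM, 2.29 ± 0.20) included, and 4 lower. Slits, netrins and their receptors were lower in 11 of 20 and higher in 4, SLIT2 (-1.16 ± 0.023), SLIT3 (-0.72 ± 0.025) and ROBO1 (-1.22 ± 0.030) among the former, and UNC5C was higher (1.04 ± 0.024). SEMA6A was at 281 and 280.2 CPM with FGF8+10 and 62.3 and 58.3 CPM with Mock (2.22 ± 0.034) and SEMA3C, a secreted semaphorin, was lower (-2.03 ± 0.076). Of 20 ephrins and EPH receptors 8 were higher and 8 lower: EPHA4, a mesenchymal limb receptor, was at 105 and 105 CPM with FGF8+10 and 12.1 and 9.48 CPM with Mock (3.29 ± 0.12), EPHA3 and EPHB2 were higher (1.99 ± 0.091 and 2.47 ± 0.066), and EPHA10 and the ligand EFNA5 were lower (-7.08 ± 0.40 and -2.43 ± 0.12).

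**Figure D2:**
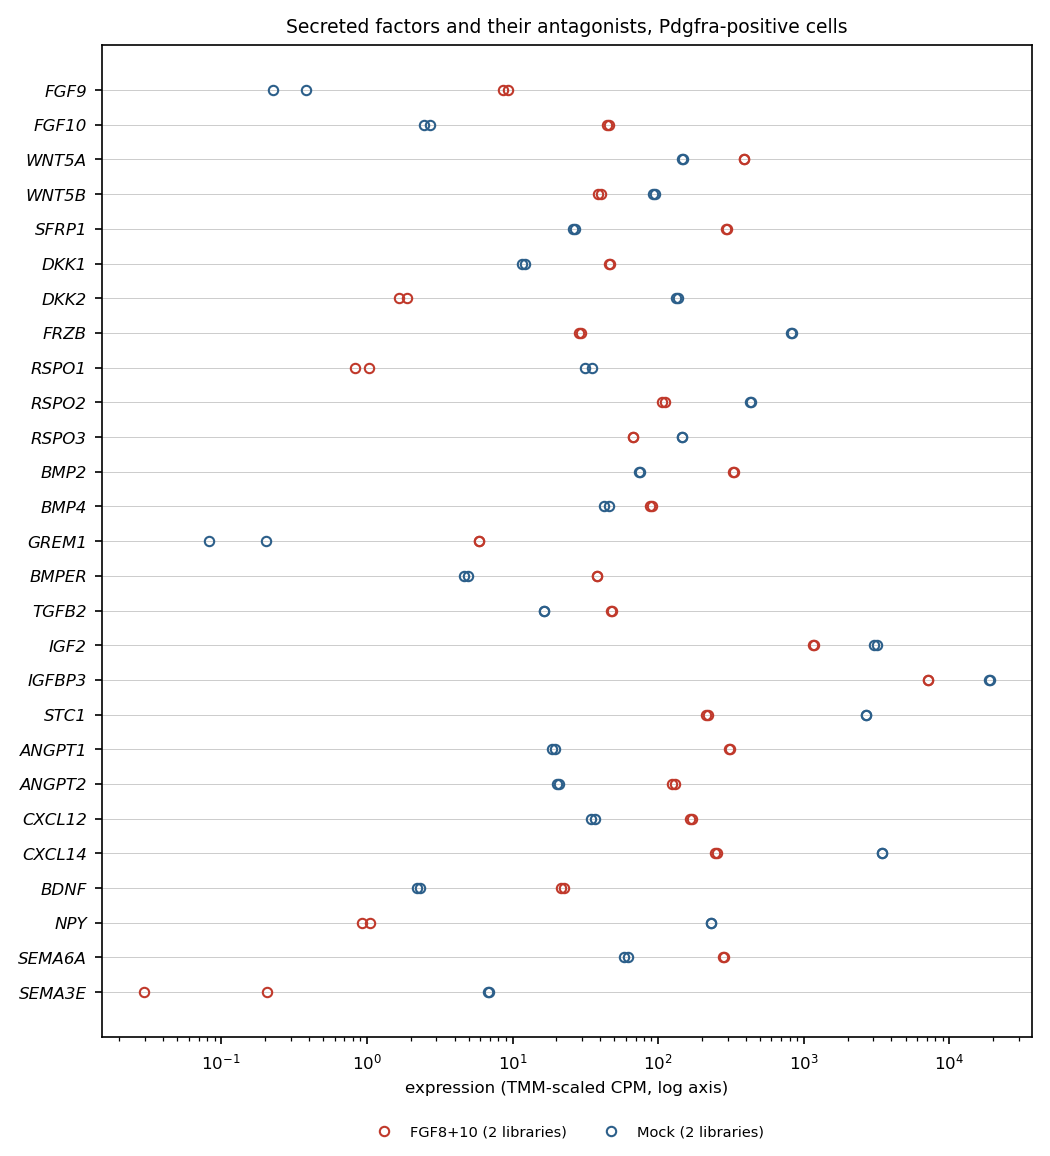
Expression of 27 genes of secreted factors in each of the 4 PDGFRA-positive libraries, as TMM-scaled CPM on a log axis, with FGF8+10 in red and Mock in blue. Replicates of a group lie close together, and genes such as DKK2, FRZB, CXCL14 and NPY have Mock values far to the right of the FGF8+10 values, with SFRP1 and ANGPT1 the other way round.

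HOX genes, which set position along the body and the limb, had a larger share of members called in 1 direction than any other transcription factor list here. Of 35 tested, 26 were higher and 3 lower, 19 of them higher by at least 2-fold, with a median of 1.05. The HOXD cluster was higher in all 8 genes tested (median 1.40), the HOXB cluster in 8 of 9 (1.15), the HOXA cluster in 6 of 11 (0.43) and the HOXC cluster in 4 of 7 (0.52). HOXD10 was at 84.0 and 81.8 CPM with FGF8+10 and 34.3 and 33.3 CPM with Mock and HOXD9 at 54.8 and 53.9 CPM with FGF8+10 and 18.0 and 19.9 CPM with Mock. Paralogs of these groups pattern the proximal and middle parts of the limb, and for both genes the 2 treatments did not overlap. HOXB2 and HOXB8 were higher (1.92 ± 0.13 and 1.75 ± 0.080). The 3 genes that were lower belong to paralog groups 11 and 13: HOXA13, which marks the hand and foot plate, was at 71.0 and 70.4 CPM with FGF8+10 and 143 and 139 CPM with Mock (-0.99 ± 0.036), HOXA11 was lower (-0.59 ± 0.11) and so was HOXB13 (-0.23 ± 0.049), which lost its call with library totals alone. The HOXD genes of those groups were higher with the rest of their cluster. Neighbouring HOX genes overlap antisense transcripts, and the counting used no strand, so reads of such partners cannot be told apart.

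**Figure D3:**
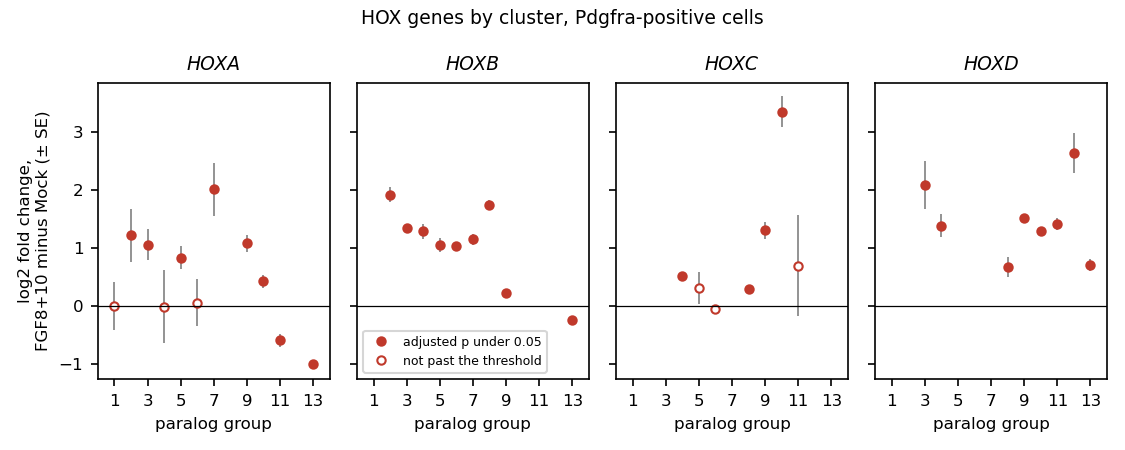
Log2 fold change, FGF8+10 minus Mock, of each tested HOX gene in PDGFRA-positive cells, by cluster (panels) and paralog group (horizontal axis), with bars for the standard error. Filled points passed the adjusted p threshold, and all points of the HOXD panel lie above 0 while HOXA11, HOXA13 and HOXB13 lie below.

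Other homeobox families were split. PITX1, the hindlimb selector, was lower (-0.50 ± 0.038), as were SHOX2, which patterns the proximal limb (-2.41 ± 0.069), and PRRX2 (-1.95 ± 0.14). PRRX1, its paralog, was at 273 and 274 CPM with FGF8+10 and 244 and 250.1 CPM with Mock (0.15 ± 0.027). MSX2 was at 7.17 and 6.54 CPM with FGF8+10 and 32.0 and 29.1 CPM with Mock (-2.15 ± 0.093), opposite to MSX1, the reporter gene. ISL1, a LIM homeobox factor of lateral plate and hindlimb progenitors, was at 19.1 and 18.9 CPM with FGF8+10 and 1.97 and 2.47 CPM with Mock (3.09 ± 0.13). LHX2, a mediator of FGF signals in limb mesenchyme, was lower (-2.81 ± 0.35), with a mean under 5 CPM in both groups. CDX2, a caudal factor, and NKX3-2 were higher (1.69 ± 0.049 and 1.35 ± 0.18). Of the TALE cofactors PBX3 and MEIS2 were higher (1.57 ± 0.063 and 0.49 ± 0.036) and IRX3, with a mean under 5 CPM in both groups, was lower (-1.73 ± 0.23).

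T-box factors showed no common direction. TBX4, the hindlimb factor, was at 33.7 and 32.5 CPM with FGF8+10 and 89.3 and 87.1 CPM with Mock (-1.41 ± 0.048) and TBX2 at 34.9 and 35.6 CPM with FGF8+10 and 142 and 144 CPM with Mock (-2.02 ± 0.043), while TBX3 and TBX18 were higher (0.82 ± 0.024 and 1.79 ± 0.16). TBX5, the forelimb factor, was not called, at 3.67 and 3.75 CPM with FGF8+10 and 3.88 and 3.03 CPM with Mock. GATA2, a factor of blood and endothelial progenitors, was higher (2.54 ± 0.059). The cardiac and lateral plate factors GATA6 and GATA5 were lower (-0.32 ± 0.035 and -0.53 ± 0.064). GATA4, also a lateral plate marker and the gene of highest RPKM among the GATA factors, was called higher. The related TRPS1, a repressor in growing cartilage, was higher (1.57 ± 0.047).

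Factors of skeletal differentiation also parted. RUNX2, the master factor of bone formation, was at 23.5 and 22.2 CPM with FGF8+10 and 1.73 and 2.86 CPM with Mock (3.30 ± 0.13), and SOX9, which specifies cartilage, was higher (1.01 ± 0.098), while its partners SOX5 and SOX6 were lower (-0.66 ± 0.057 and -1.71 ± 0.035). SOX4 was at 138 and 136 CPM with FGF8+10 and 28.8 and 30.5 CPM with Mock (2.21 ± 0.043) and SOX11, of the same subgroup, was higher by the same amount (2.21 ± 0.076). Among nuclear receptors 16 of 41 were higher and 10 lower. NR2F1 was at 25.7 and 26.2 CPM with FGF8+10 and 2.89 and 3.03 CPM with Mock (3.13 ± 0.11), its paralog NR2F2 was higher (1.21 ± 0.060), and the mineralocorticoid receptor NR3C2 and the thyroid receptor THRB were lower (-4.30 ± 0.26 and -2.72 ± 0.25).

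Among other factors KLF4, a factor of quiescent and pluripotent cells, was at 1.53 and 1.10 CPM with FGF8+10 and 15.9 and 16.2 CPM with Mock (-3.61 ± 0.16). ZEB1, a repressor of epithelial genes, was higher (2.17 ± 0.061), as were MECOM (2.07 ± 0.060), DACH1 (2.12 ± 0.049), FOXP1 (1.80 ± 0.12) and FOXD1 (2.07 ± 0.082). EPAS1, the hypoxia factor HIF-2 alpha, was lower (-1.48 ± 0.024), and OSR1, a lateral plate and connective tissue factor, was lower too (-1.25 ± 0.052). The large class of zinc finger genes named ZNF leaned upward by small amounts: 184 of 492 were higher and 70 lower, but 15 and 12 passed 2-fold, and the median was 0.14. With library totals alone 289 were higher and 39 lower. Many ZNF genes lie in clusters of similar copies, and reads shared between copies would not have been counted.

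In the matrix the major fibrillar collagens were lower, and fibrillin 1, lysyl oxidase and tenascin C were higher. Collagen genes were lower in 26 of 43, 21 of them by at least 2-fold, and higher in 10. COL3A1, with the highest level per length of the family (3515 RPKM with FGF8+10 and 8967 RPKM with Mock), was lower (-1.35 ± 0.011), and COL1A1 was at 4393 and 4333 CPM with FGF8+10 and 17677 and 17136 CPM with Mock (-2.0 ± 0.021). COL15A1, a collagen of basement membrane borders, was at 2.83 and 3.14 CPM with FGF8+10 and 349 and 352 CPM with Mock (-6.88 ± 0.044). Those that were higher included COL12A1, which links fibrils (3.44 ± 0.25), COL26A1 (2.79 ± 0.051) and COL11A1, a cartilage fibril collagen (1.3 ± 0.024).

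FBN1, the main microfibril protein, was at 4989 and 4945 CPM with FGF8+10 and 882 and 881 CPM with Mock (2.49 ± 0.017), and its embryonic paralog FBN2 was lower (-1.18 ± 0.022). LOX, which crosslinks collagen and elastin, was at 253 and 263 CPM with FGF8+10 and 38.9 and 39.1 CPM with Mock (2.73 ± 0.034). Elastic fibre partners MFAP4, FBLN5 and EMILIN2 were lower (-2.23 ± 0.021, -2.23 ± 0.070 and -4.75 ± 0.047), opposite to FBN1. Of the small leucine-rich proteoglycans BGN and LUM were higher (2.25 ± 0.050 and 0.42 ± 0.018) and FMOD was lower (-1.69 ± 0.057). TNC, a tenascin of growing and remodelling mesenchyme, was at 327 and 332 CPM with FGF8+10 and 10.7 and 11.7 CPM with Mock (4.88 ± 0.044, adjusted p = 4.35e-51), and TGFBI at 899 and 889.8 CPM with FGF8+10 and 32.1 and 32.4 CPM with Mock (4.79 ± 0.028). SMOC2, a calcium-binding matricellular protein, was at 0.252 and 0.118 CPM with FGF8+10 and 106 and 105 CPM with Mock (-9.14 ± 0.12), and RELN and SPON1 were lower (-3.61 ± 0.044 and -2.92 ± 0.033). SPARC, with the highest level per length of this group (869 RPKM with FGF8+10 and 1478 RPKM with Mock), was lower (-0.77 ± 0.015).

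Aggregating proteoglycans and the protein that links them were lower. VCAN, the large chondroitin sulfate proteoglycan of limb mesenchyme, was at 1325 and 1278 CPM with FGF8+10 and 7155 and 7065 CPM with Mock (-2.45 ± 0.017). HAPLN1, which links it to hyaluronan, was at 239 and 231 CPM with FGF8+10 and 1221 and 1245 CPM with Mock (-2.39 ± 0.022), and ACAN was lower (-4.15 ± 0.11), whereas the hyaluronan synthase HAS2 was higher (1.65 ± 0.027). Of 23 ADAMTS and ADAMTS-like genes, secreted proteases and their relatives, 14 were lower and 6 higher. ADAMTS1 was lower (-1.80 ± 0.018), ADAMTS19 was at 1.64 and 1.44 CPM with FGF8+10 and 64.7 and 61.8 CPM with Mock (-5.36 ± 0.086), and ADAMTS2, which processes fibrillar procollagen, was higher (2.74 ± 0.043). Matrix metalloproteinases and their inhibitors were higher in 11 of 20, MMP2 (0.60 ± 0.019), TIMP2 (0.73 ± 0.046) and TIMP3 (1.77 ± 0.026) included, and lower in 3.

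Heparan sulfate is the cofactor that FGFs need to engage their receptors, and enzymes that edit it were changed. SULF1 and SULF2, which strip 6-O-sulfates outside the cell, were at 374 and 366 CPM with FGF8+10 and 74.4 and 70.6 CPM with Mock and at 177 and 183 CPM with FGF8+10 and 28.4 and 25.8 CPM with Mock (2.35 ± 0.032 and 2.73 ± 0.041). HS6ST2, which adds 6-O-sulfates, was at 2.13 and 1.93 CPM with FGF8+10 and 9.99 and 11.9 CPM with Mock (-2.43 ± 0.12), and HS3ST1, a 3-O-sulfotransferase, was higher (1.84 ± 0.13). The genes that remove this sulfate were higher and this gene that adds it was lower. Over the class of synthesis, editing and core protein genes, 12 of 35 were higher and 18 lower.

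Among adhesion receptors integrins were higher in 13 of 23 and lower in 4 (2 without FGF8+10 replicate 1 of the PDGFRA-positive cells), ITGA6 among them (-2.09 ± 0.056). ITGA8, a receptor for nephronectin and other ligands with an RGD sequence, was at 396 and 396 CPM with FGF8+10 and 42.4 and 43.1 CPM with Mock (3.21 ± 0.032), ITGA4 was higher (2.65 ± 0.17), and ITGB1, the shared beta subunit, was higher (0.69 ± 0.019). N-cadherin, CDH2, was at 876 and 897 CPM with FGF8+10 and 114 and 118 CPM with Mock (2.94 ± 0.026), and CDH11, another mesenchymal cadherin, was higher (1.35 ± 0.020). The epithelial cadherin CDH1 was lower (-3.47 ± 0.63), but its mean was under 5 CPM in both groups. Protocadherins were higher in 24 of 61 and lower in 2, mostly by under 2-fold; their clustered genes share exons, so their counts are uncertain. PCDH17 was higher (2.95 ± 0.039) and PCDH19 lower (-3.94 ± 0.036). Immunoglobulin-type axon adhesion genes were lower in 18 of 36 and higher in 9. CNTN5 was at 1.10 and 1.34 CPM with FGF8+10 and 126 and 125 CPM with Mock (-6.68 ± 0.074), while CNTN4 was higher (3.03 ± 0.051). Laminin LAMA2 was at 6.23 and 6.96 CPM with FGF8+10 and 237 and 236 CPM with Mock (-5.16 ± 0.048). The connexin GJA1, the main gap junction gene of mesenchyme, was lower (-1.73 ± 0.018).

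**Figure D4:**
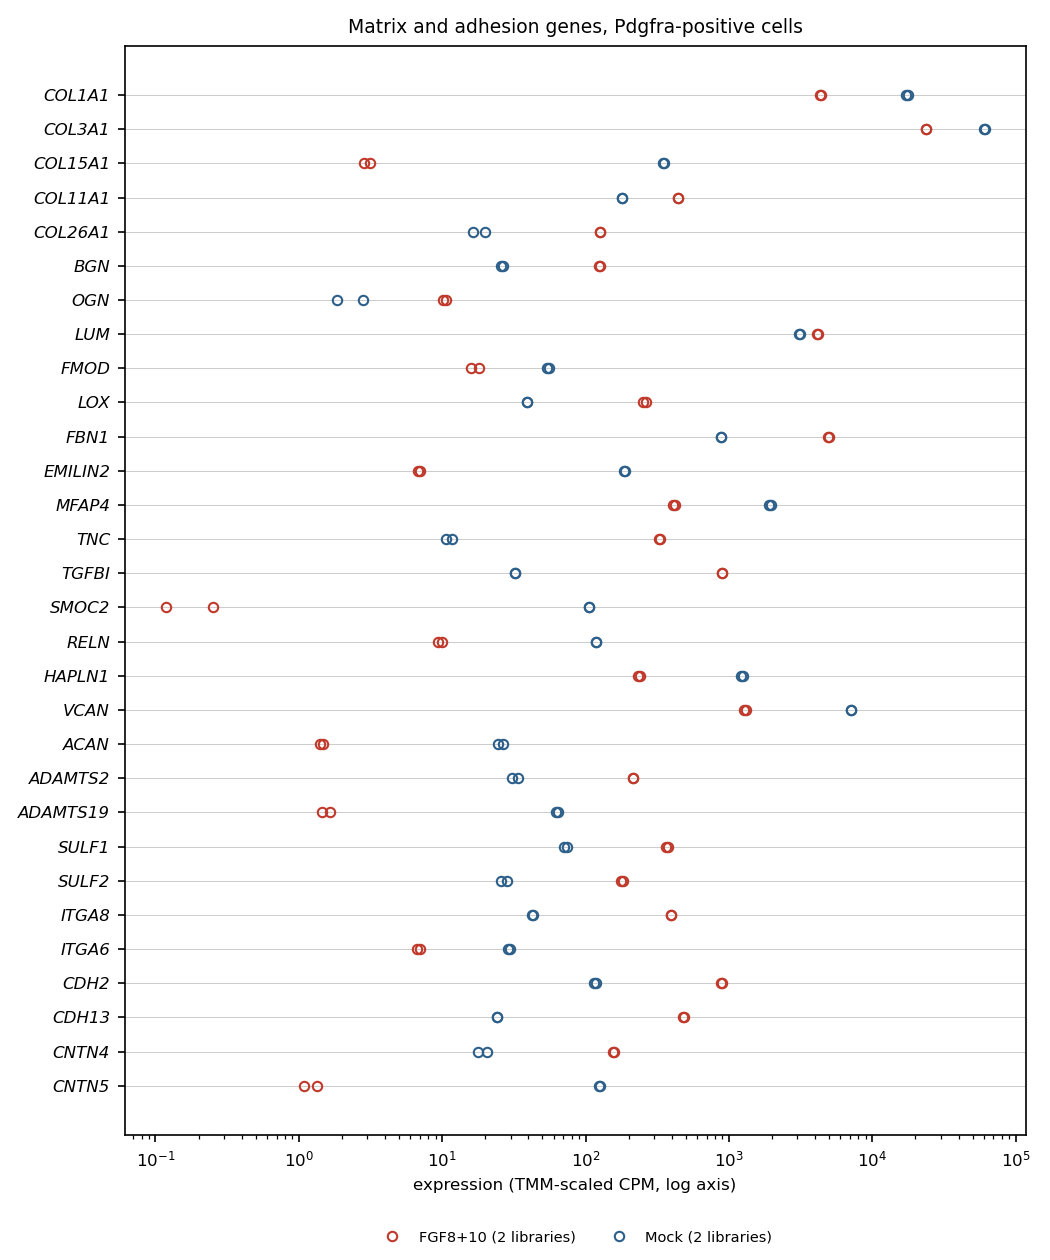
Expression of 30 matrix and adhesion genes in each of the 4 PDGFRA-positive libraries, as TMM-scaled CPM on a log axis, with FGF8+10 in red and Mock in blue. COL1A1, COL3A1, VCAN and HAPLN1 lie lower with FGF8+10, FBN1, LOX, TNC, TGFBI and CDH2 lie higher, and the replicates of each group are close together.

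Genes of DNA replication and mitosis were higher almost throughout. Replication genes were higher in 36 of 40 and lower in 1, with a median of 0.73. Mitosis and kinetochore genes were higher in 39 of 40, none was lower, and the median was 0.96. PCNA, the sliding clamp of replication, was at 106 and 108 CPM with FGF8+10 and 48.8 and 45.4 CPM with Mock (1.19 ± 0.039), and MCM2, a helicase subunit, at 65.6 and 65.5 CPM with FGF8+10 and 44.0 and 41.5 CPM with Mock (0.62 ± 0.049). CDK1, the mitotic kinase, was at 148 and 148 CPM with FGF8+10 and 71.4 and 75.3 CPM with Mock (1.01 ± 0.033). POLD2, a polymerase delta subunit, was the replication gene that was lower (-0.76 ± 0.038). Of the regulators of G1, CCND1, an ERK target cyclin, was at 252 and 249 CPM with FGF8+10 and 71.3 and 64.9 CPM with Mock (1.88 ± 0.039), CCND2 and CCND3 were lower (-0.60 ± 0.033 and -1.05 ± 0.049), and the inhibitor CDKN1C was lower (-1.54 ± 0.035) while CDKN1B was higher (0.89 ± 0.041).

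The promoters of these genes are shown because 2 elements known to time them are common in the set. The E2F site, searched as TTTNGCGC, is bound by E2F factors at genes of the S phase. The cell cycle homology region, searched as TTTGAA, is bound by regulatory complexes at genes of mitosis. Both were searched on both strands in windows of 300 bases, from 250 before to 50 after each start (RefSeq, GRCh38.p14), and a gene may have several windows. The E2F letters were in 13 of 42 windows of 33 replication genes (31.0%) against 1.79% of all 35116 windows. The TTTGAA letters were in 26 of 40 windows of 33 mitosis genes (65.0%) against 15.2% of all. The calls were counted for genes with and without the letters: 12 of 13 replication genes with the E2F letters and 17 of 20 without were higher, and 22 of 23 mitosis genes with TTTGAA and 10 of 10 without. A match is a description of the letters, not of binding. Beside these and an amino acid element described next, the ETS site CCGGAAGT and the sterol response element TCACNCCAC were searched. The ETS letters were in 0 of 29 windows of ERK feedback inhibitors, against 4.14% of all, and the sterol letters in 1 of 23 windows of cholesterol genes, against 1.13% of all. Below, capitals mark the element in the E2F case for MCM2 (chr3:127598161-127598460, plus strand) and GINS1 (chr20:25407423-25407722, plus strand), and TTTGAA or its reverse complement for CENPA (chr2:26785806-26786105, plus strand) and NDC80 (chr18:2571307-2571606, plus strand). GINS1, a partner of the replicative helicase, was at 30.4 and 32.7 CPM with FGF8+10 and 14.2 and 13.4 CPM with Mock (1.19 ± 0.069), CENPA, the centromeric histone, was higher (1.28 ± 0.11) and NDC80, which holds microtubules at the kinetochore, was at 51.5 and 50.6 CPM with FGF8+10 and 22.5 and 21.7 CPM with Mock (1.21 ± 0.056).
MCM2: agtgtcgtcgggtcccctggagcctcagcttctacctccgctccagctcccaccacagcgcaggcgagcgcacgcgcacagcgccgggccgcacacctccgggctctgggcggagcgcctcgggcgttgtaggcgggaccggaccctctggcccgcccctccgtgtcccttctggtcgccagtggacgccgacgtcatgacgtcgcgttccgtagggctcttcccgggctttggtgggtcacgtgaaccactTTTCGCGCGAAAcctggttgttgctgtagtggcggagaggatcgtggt
GINS1: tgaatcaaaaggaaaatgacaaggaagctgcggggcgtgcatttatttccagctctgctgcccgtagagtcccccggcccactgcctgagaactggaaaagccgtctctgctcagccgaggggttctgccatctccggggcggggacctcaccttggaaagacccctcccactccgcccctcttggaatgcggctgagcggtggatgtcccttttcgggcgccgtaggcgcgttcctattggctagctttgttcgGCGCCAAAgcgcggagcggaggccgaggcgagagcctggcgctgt
CENPA: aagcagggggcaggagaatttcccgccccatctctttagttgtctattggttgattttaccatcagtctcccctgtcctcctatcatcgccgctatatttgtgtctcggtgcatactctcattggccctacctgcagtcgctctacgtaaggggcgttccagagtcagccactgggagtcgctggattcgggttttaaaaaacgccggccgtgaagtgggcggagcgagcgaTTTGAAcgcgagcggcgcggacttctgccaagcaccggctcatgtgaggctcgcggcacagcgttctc
NDC80: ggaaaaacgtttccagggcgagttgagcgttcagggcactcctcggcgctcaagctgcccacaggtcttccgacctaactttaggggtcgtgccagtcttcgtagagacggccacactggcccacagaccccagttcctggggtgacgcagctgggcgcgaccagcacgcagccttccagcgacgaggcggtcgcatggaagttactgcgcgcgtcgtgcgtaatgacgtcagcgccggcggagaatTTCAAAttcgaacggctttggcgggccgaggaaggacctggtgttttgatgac

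Genes for making and importing amino acids had the lowest median of the metabolic lists. Of 38 genes for serine, one-carbon and amino acid supply, 30 were lower, 21 by at least 2-fold, and 4 were higher, with a median of -1.04. ASNS, asparagine synthetase, was at 0.592 and 0.751 CPM with FGF8+10 and 5.31 and 4.98 CPM with Mock (-2.93 ± 0.23, adjusted p = 6.45e-15). CHAC1, which degrades glutathione in stressed cells, was at 1.27 and 1.44 CPM with FGF8+10 and 13.8 and 15.4 CPM with Mock (-3.42 ± 0.14), and ALDH1L2, a mitochondrial folate enzyme, was lower (-4.16 ± 0.070). SLC7A5, the large neutral amino acid transporter, was at 9.15 and 9.05 CPM with FGF8+10 and 141 and 142 CPM with Mock (-3.96 ± 0.044). ATF4 itself, the factor that controls many of them, had a smaller change at the RNA level (-0.31 ± 0.023), and TRIB3, its target and inhibitor, was lower (-1.62 ± 0.095). ASS1, which makes argininosuccinate, was the main exception and was higher (1.90 ± 0.058). Cytosolic tRNA synthetases, many of which belong to the same response, were lower in 17 of 20 and higher in 2 (1 without Mock replicate 2 of the PDGFRA-positive cells), with GARS1 (-1.49 ± 0.033), WARS1 (-1.48 ± 0.038) and MARS1 (-1.40 ± 0.031) in front. Of the unfolded protein response genes, which share inputs with it, 8 of 22 were higher and 10 lower (with library totals alone 11 and 7), HERPUD1 (-1.27 ± 0.040) among the latter.

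The amino acid response element, to which ATF4 binds with a partner of the CEBP family, was searched as TGATGNAA in the same windows and on both strands. It was in 10 of 52 windows of the 30 genes of this list that have one (19.2%), against 3.62% of all windows. All 8 genes with the letters (MTHFD1L, ASNS, SLC3A2, SLC1A4, SLC1A5, SLC7A1, CHAC1 and CEBPG) were lower, and of the 22 without, 15 were lower and 4 higher. The promoters of ASNS (chr7:97872359-97872658, minus strand) and CHAC1 (chr15:40953221-40953520, plus strand) show the element in capitals.
ASNS: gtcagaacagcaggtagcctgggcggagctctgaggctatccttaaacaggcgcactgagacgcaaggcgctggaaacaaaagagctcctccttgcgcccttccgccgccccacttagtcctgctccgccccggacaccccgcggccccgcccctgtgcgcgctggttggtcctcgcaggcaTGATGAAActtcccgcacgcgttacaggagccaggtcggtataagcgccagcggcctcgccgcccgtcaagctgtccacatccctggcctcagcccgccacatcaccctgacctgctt
CHAC1: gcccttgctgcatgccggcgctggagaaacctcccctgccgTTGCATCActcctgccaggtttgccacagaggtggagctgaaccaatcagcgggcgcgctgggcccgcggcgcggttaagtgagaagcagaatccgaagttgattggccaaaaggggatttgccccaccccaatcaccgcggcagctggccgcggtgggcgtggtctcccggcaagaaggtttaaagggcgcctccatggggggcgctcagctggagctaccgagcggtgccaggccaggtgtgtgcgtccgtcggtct

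Genes of protein synthesis were lower by small amounts. Ribosome biogenesis genes were lower in 30 of 35, none by 2-fold, and higher in 2, with a median of -0.42. POLR1A, the large subunit of RNA polymerase I, was at 59.3 and 60.1 CPM with FGF8+10 and 103 and 99.8 CPM with Mock (-0.76 ± 0.039), and BYSL, needed for the small ribosomal subunit, was lower (-0.88 ± 0.077). Ribosomal proteins were lower in 51 of 85 and higher in 8, but with library totals alone 39 were higher and 19 lower, so their direction depends on the scaling. Their median was -0.13, and many have near-identical processed copies whose shared reads were not counted.

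Lipid synthesis genes were lower as well. Fatty acid synthesis and desaturation genes were lower in 21 of 24 and higher in 2 (1 without FGF8+10 replicate 2 or Mock replicate 1 of the PDGFRA-positive cells), with SCD, the main desaturase, at 450.2 and 464 CPM with FGF8+10 and 1063 and 1075 CPM with Mock (-1.23 ± 0.020). Cholesterol synthesis and uptake genes were lower in 19 of 24, and in 10 with library totals alone. Of the tested genes, 3 were higher, or 1 without FGF8+10 replicate 2 or either Mock replicate of the PDGFRA-positive cells. HMGCS1, an early enzyme of the pathway, was at 178 and 180.2 CPM with FGF8+10 and 251 and 256 CPM with Mock (-0.50 ± 0.027). DHCR7, its last enzyme, was lower (-1.01 ± 0.038).

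Energy metabolism gave few large changes. SLC2A1, the basal glucose transporter, was at 14.4 and 16.4 CPM with FGF8+10 and 93.4 and 94.2 CPM with Mock (-2.61 ± 0.044), and the hexokinase HK2 was lower (-1.70 ± 0.066), while the lactate transporter SLC16A1 and the phosphofructokinase PFKP were higher (1.13 ± 0.032 and 1.20 ± 0.039). Glycolysis genes were higher in 6 of 24 and lower in 13 (with library totals alone 10 and 9). Respiratory chain genes were higher in 33 of 80, none by 2-fold, and lower in 9 (with library totals alone 58 and 2). In the TCA cycle SUCLG1, a subunit of succinyl-CoA ligase, was at 51.2 and 49.3 CPM with FGF8+10 and 219 and 214 CPM with Mock (-2.11 ± 0.035).

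The same treatment in the PDGFRA-low libraries allowed a test of where the response differed, and the 2 contrasts share no library. The difference of the 2 effects was called for 5862 genes (26%), with 2697 (12%) more positive and 3165 (14%) more negative in PDGFRA-positive cells. For cholesterol genes the difference was more negative in 23 of 24 and more positive in 0. Their median was -0.32 in PDGFRA-positive and 0.44 in PDGFRA-low cells, below 0 in 1 population and above 0 in the other. The effect on HMGCS1 was -0.50 ± 0.027 in PDGFRA-positive and 0.72 ± 0.026 in PDGFRA-low cells, a difference of -1.22 ± 0.037 (adjusted p = 6.9e-29). INSIG1, a sterol sensor, was higher in both, by 0.29 ± 0.039 and 1.32 ± 0.039. Ribosome biogenesis genes were more negative in 29 of 35 and tRNA synthetases in 16 of 20. Mitosis genes rose less than in PDGFRA-low cells, more negative in 37 of 40 (medians 0.96 and 1.41), and so did replication genes in 24 of 40. The ERK feedback inhibitors were more negative in 12 of 19, among them DUSP6 (difference -2.48 ± 0.14), whereas SPRY2 did not differ past the threshold (-0.17 ± 0.081, adjusted p = 0.141).

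For some secreted factors and receptors the effect was more positive in the PDGFRA-positive cells, as a larger rise, a smaller fall or an opposite direction. DKK1 was higher by 1.96 ± 0.060 there and by 0.17 ± 0.049 in PDGFRA-low cells (difference 1.79 ± 0.078, adjusted p = 3.91e-23). TGFB2 differed by 1.09 ± 0.090, SULF1 by 1.44 ± 0.044 and VEGFC by 1.21 ± 0.12. IGFBP5 was higher by 1.14 ± 0.040 in PDGFRA-positive cells and lower in PDGFRA-low cells (-0.72 ± 0.041). ITGA11, a collagen receptor of mesenchyme, was at 16.1 and 13.5 CPM with FGF8+10 and 3.72 and 3.78 CPM with Mock and differed by 2.19 ± 0.15. The hedgehog list was more positive in 10 of 18 and more negative in 3, which for PTCH1 means a smaller fall (-1.49 ± 0.043 against -2.21 ± 0.044). ADAMTS genes were more positive in 10 of 23 and more negative in 6. Their median was -0.60 in PDGFRA-positive and -1.45 in PDGFRA-low cells, a smaller fall in the former. MYC and JUN were lower in PDGFRA-positive cells by more than in PDGFRA-low cells, with differences of -0.83 ± 0.078 and -1.0 ± 0.081.

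**Figure D5:**
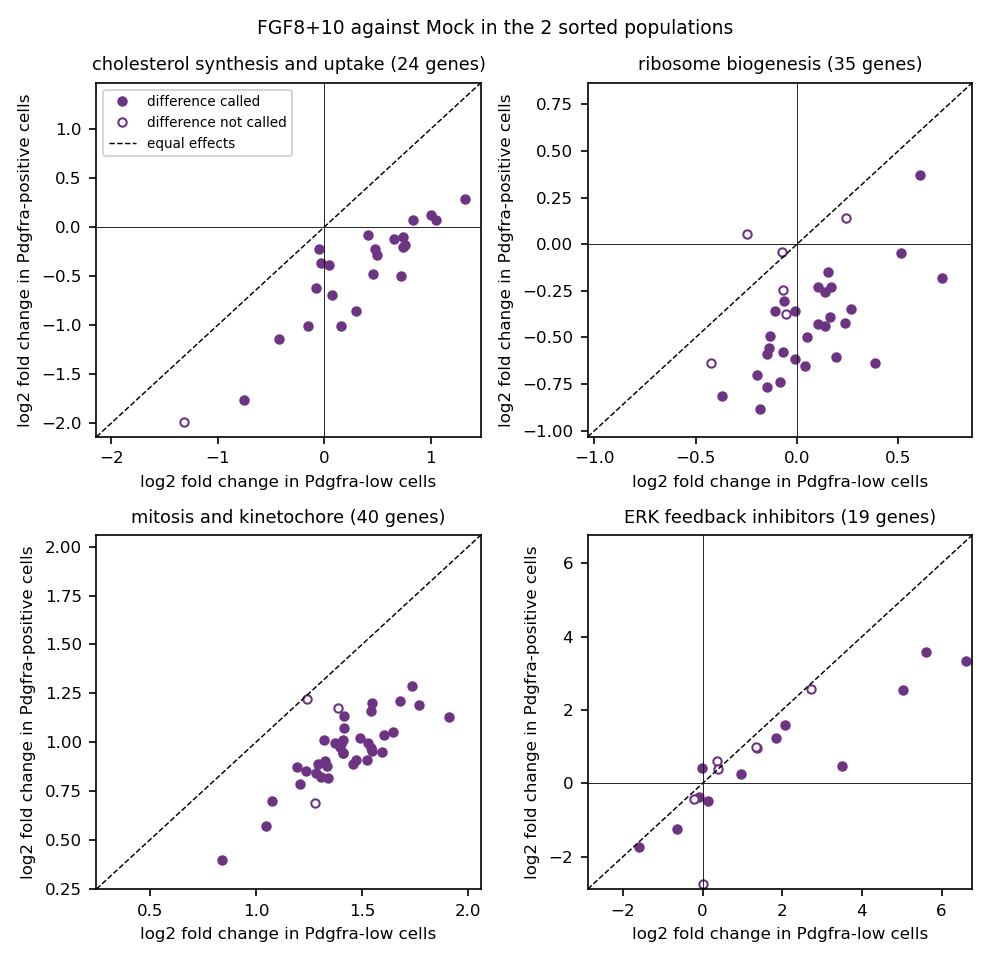
Log2 fold change, FGF8+10 minus Mock, of each tested member of 4 lists in PDGFRA-low cells (horizontal) and PDGFRA-positive cells (vertical). Filled points are genes whose difference between the populations had an adjusted p under 0.05, the dashed line marks equal effects, and nearly all cholesterol, ribosome biogenesis and mitosis genes lie below it.

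Among membrane genes for excitability and transport more were lower than higher in each list. Sodium, calcium and TRP channel genes were lower in 27 of 45 and higher in 5, potassium channels lower in 27 of 67 and higher in 17, and neurotransmitter receptors lower in 34 of 69 and higher in 8. SCN7A, an atypical sodium channel, was at 0.385 and 0.191 CPM with FGF8+10 and 19.8 and 19.7 CPM with Mock (-6.09 ± 0.20), and the dopamine receptor DRD2 at 1.20 and 1.22 CPM with FGF8+10 and 68.1 and 65.1 CPM with Mock (-5.78 ± 0.082). PIEZO2, a mechanically gated channel, went the other way, from 6.27 and 7.66 CPM with Mock to 103 and 106 CPM with FGF8+10 (3.90 ± 0.067), as did the adrenergic receptor ADRA2A (3.63 ± 0.050) and the muscarinic receptor CHRM2 (2.50 ± 0.034). SLC18A3, the vesicular acetylcholine transporter, was counted 0 times in both FGF8+10 libraries and stood at 13.5 and 13.1 CPM with Mock, at least 300.1-fold lower if the treated group is given the smallest value allowed, 6 counts in all.

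Solute carriers were lower in 127 of 279, 64 by at least 2-fold, and higher in 42. SLC38A5, a glutamine transporter, was at 0.326 and 0.677 CPM with FGF8+10 and 40.0 and 36.0 CPM with Mock (-6.24 ± 0.14), and SLC16A10, which carries aromatic amino acids, was lower by a similar amount (-6.21 ± 0.17), next to the amino acid genes above. The zinc transporter SLC39A6 was higher (1.37 ± 0.029). Of the lipid receptors S1PR1, a receptor for sphingosine 1-phosphate, was lower (-2.34 ± 0.033), and of the water channels AQP1 was lower (-3.05 ± 0.075).

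Cytoskeletal and coagulation genes included further large changes. DCX, a microtubule-binding protein of migrating neurons, was at 6.84 and 7.60 CPM with FGF8+10 and 0.202 and 0.0830 CPM with Mock (5.66 ± 0.31), DPYSL3 and STMN1 were higher (3.04 ± 0.052 and 1.59 ± 0.027), and VIM, the mesenchymal intermediate filament, was at 2378 and 2447 CPM with FGF8+10 and 830.2 and 869 CPM with Mock (1.51 ± 0.021). DES, the muscle filament and 1 of the smooth muscle markers above, was lower (-2.07 ± 0.13), while ACTA2 of the same list was higher. RHOJ, a small GTPase, was higher (3.65 ± 0.10). Kinesins and dyneins were higher in 35 of 62 and lower in 10, several of the former mitotic motors such as KIF15 (1.16 ± 0.054) and KIF18A (1.13 ± 0.072). THBD, thrombomodulin, was at 0.118 and 0.132 CPM with FGF8+10 and 33.2 and 35.3 CPM with Mock (-8.07 ± 0.14) and F3, tissue factor, at 7.48 and 6.67 CPM with FGF8+10 and 120.4 and 130.3 CPM with Mock (-4.15 ± 0.058), while the tissue factor inhibitor TFPI was higher (2.71 ± 0.027), opposite to the initiator of clotting that it inhibits. Interferon response and MHC class I genes were higher in 16 of 31 and lower in 5, with IFIT2 (2.99 ± 0.21) and B2M (0.83 ± 0.023) higher and IFITM3 lower (-0.57 ± 0.026).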

How the data were processed

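RNA-seq counts per gene name were used from 8 libraries, 4 of them of the comparison described. Per the labels' protocols, the RNA came from TRI Reagent extracts and the library kit was NEBNext Ultra RNA. HISAT2 2.1.0 was the aligner, GRCh38 the build and FastQC 0.11.8 the quality tool, per the submitters' processing notes. The authors deposited raw counts that, per the file headers, were made with featureCounts 2.0.3 on exons of GENCODE release 42. Paired reads were counted as single mates without strand, so counts overstate fragments, and reads shared by several genes or places were dropped by that tool's default. The exon length in the deposited table, in bases, set the RPKM values.

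The counts were fitted in edgeR 4.0.16 (R 4.3.3) over all 4 groups with TMM factors, a low-count filter, 1 mean per group (4 residual degrees of freedom) and the robust quasi-likelihood test, two-sided, adjusted by Benjamini-Hochberg over the 22554 genes tested at 0.05. The common biological coefficient of variation was 4.06%. The labels call the replicates biological but do not say that they came from separate differentiations, so the spread behind each p-value is that of these libraries and may be technical. Each of the 4 pairs of replicates differed by more than counting noise. No sample column was left out (0 unused). A group with no count is bounded by a floor of 6 counts over the group.

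The comparison and the 106 gene lists were chosen with earlier results of these data known. Lists are described by counts and medians, with no set test. Named genes are up to 4 largest rises and 4 largest falls per list (adjusted p under 0.05, a group mean of at least 5 CPM), genes set to be named whatever their values, and the gene of highest RPKM per list; exceptions are stated. The fit was also run on simulated data in which few genes changed, as many up as down, so that run does not test the scaling. Alternatives were DESeq2 1.42.0, library totals alone, RLE factors, other filters, the 4 PDGFRA-positive libraries alone, a replicate block, leaving out each library, and a test against 1.5-fold. Promoter windows came from RefSeq.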

Additional observations from a re-analysis of the deposited data

Results flagged for a closer look

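The FGF8+10 effect differed between the sorted populations, by the test of the difference itself, in 2697 genes that were more positive and 3165 that were more negative in PDGFRA-positive cells. Among genes named or plotted above, those whose effects differed by at least 2 on the log2 scale are given here as PDGFRA-positive minus PDGFRA-low. ETV4 differed by -4.20, ANGPT1 by -4.12, GREM1 by -3.72, ALDH1A2 by -3.35, CDH5 by -3.27, CDH13 by -3.11, DUSP6 by -2.48 and RASGRP3 by -2.13. All of these rose more in PDGFRA-low cells, or, for CDH5, were called there alone. ITGA6, a laminin receptor subunit, differed by 2.75, since it was lower in PDGFRA-positive cells by less (-2.09 ± 0.056) than in PDGFRA-low cells (-4.84 ± 0.045). ITGA11 differed by 2.19.

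A further 4 genes were called in both populations with opposite signs, at least 2-fold each way, with a mean of at least 5 CPM in some group, and are named because of those values. APLNR, the apelin receptor, and TIE1, a receptor kinase, both known from endothelial cells, were lower in PDGFRA-positive cells (-1.19 ± 0.17 and -1.22 ± 0.18) and higher in PDGFRA-low cells (2.01 ± 0.13 and 1.98 ± 0.15), which are differences of -3.20 and -3.21. APLNR was at 2.07 and 1.77 CPM with FGF8+10 and 5.09 and 3.71 CPM with Mock in PDGFRA-positive cells, and TIE1 at 1.98 and 1.56 CPM with FGF8+10 and 4.82 and 3.49 CPM with Mock. The summed endothelial markers of these libraries, most of which is KDR, were higher with FGF8+10, and their part in these differences was not tested. Over the 15 endothelial markers the median effect was 0.53 in PDGFRA-positive and 2.70 in PDGFRA-low cells. The difference was more negative in 12 of them and more positive in 0. SP6, a zinc finger factor, was also lower in PDGFRA-positive (-1.38 ± 0.32) and higher in PDGFRA-low cells (1.89 ± 0.26), a difference of -3.27, but its call in PDGFRA-positive cells was lost without Mock replicate 2 of that population. KCNIP1, which encodes a potassium channel partner, was higher in PDGFRA-positive (1.25 ± 0.27) and lower in PDGFRA-low cells (-2.14 ± 0.21), a difference of 3.39.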

How the results depend on the processing

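The numbers of genes higher and lower stayed within 1.5 times the reported counts under every alternative run. Leaving out 1 library at a time gave 5231 to 5940 genes higher and 4833 to 5590 lower, and, by at least 2-fold, 1514 to 1664 higher and 2001 to 2224 lower. DESeq2 gave 5521 higher and 5197 lower, and library totals alone 8164 and 3991. For the difference between the sorted populations, leaving out 1 library gave 2291 to 2571 genes more positive and 2572 to 2899 more negative. Replicate numbers are shared by all groups, but deviations of same-numbered libraries correlated between -0.016 and 0.035. These values show no pairing by number, but with replicates this close they cannot exclude one. With a replicate block 5767 genes were higher and 5599 lower, and 11316 of 11469 calls were in both fits.

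Of the 302 genes named in the text or plotted, CDH5, HOXB13 and SP6 were on the other side of the threshold under some alternative, and no gene changed direction with a call. Counts within lists moved by more than 1.5 times mainly with library totals alone, where ribosomal proteins went from 8 higher and 51 lower to 39 and 19, ZNF genes from 184 and 70 to 289 and 39, respiratory chain genes from 33 and 9 to 58 and 2, lower cholesterol genes from 19 to 10, higher glycolysis genes from 6 to 10, higher hypoxia genes from 5 to 8, higher cholesterol genes from 3 to 5, higher ribosome biogenesis genes from 2 to 4, lower p53 targets from 5 to 2, and lower RAS to ERK genes from 6 to 3. DESeq2 gave 2 lower integrins in place of 4 and 1 higher fatty acid gene in place of 2. With a filter of 1 CPM in 2 libraries, lower WNT ligands went from 5 to 3, and LINC genes from 72 higher and 105 lower to 42 and 65. The cause was not tested. With 2 libraries per group, each group's own spread rests on 1 difference, and for genes with few counts a missing call does not show equal levels.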

Other observations

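Among EGF and neuregulin genes 5 of 13 were higher and 3 lower: the receptor EGFR was at 47.8 and 47.0 CPM with FGF8+10 and 24.3 and 24.4 CPM with Mock (0.96 ± 0.061), the ligand AREG was higher (1.24 ± 0.14) and ERBB2 was lower (-0.86 ± 0.035). Proteasome subunits were higher in 15 of 36 and lower in 4, PSMA5 (0.29 ± 0.046) and PSMB2 (0.39 ± 0.037) among the higher, with a median of 0.081. With library totals alone 30 were higher and 0 lower, and without Mock replicate 1 of the PDGFRA-positive cells 2 were lower. By the test of the difference, the effect was more negative than in PDGFRA-low cells in 25 subunits. Of 17 genes that p53 induces, 8 were higher, BAX (0.82 ± 0.059) and ZMAT3 (0.73 ± 0.063) among them, and 5 were lower, including SESN2 (-1.0 ± 0.056), which amino acid stress also induces.

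Genes known to respond to hypoxia were lower in 12 of 24 and higher in 5. DDIT4, an inhibitor of mTORC1, was at 67.8 and 60.7 CPM with FGF8+10 and 126 and 119.7 CPM with Mock (-0.93 ± 0.040), P4HA1, a collagen prolyl hydroxylase, was lower (-0.77 ± 0.024), and BNIP3L, a mitophagy receptor, was higher (0.35 ± 0.027). Complement C7 was at 209 and 207 CPM with FGF8+10 and 22.8 and 17.5 CPM with Mock (3.37 ± 0.067), and the urokinase PLAU and the protein C receptor PROCR were higher (1.89 ± 0.12 and 1.57 ± 0.11). Of 2232 long noncoding RNA genes named LINC, 470 were tested, with 72 higher and 105 lower, or 100 and 85 with library totals alone.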
